A study of Mus musculus with 13 samples.

Results

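The Notch genes examined here were the receptors Notch1, Notch2 and Notch3, the ligands Jag1, Jag2 and Dll1, and the transcriptional targets Hes1, Hey1, Heyl and Nrarp. These 10 genes were listed by symbol and found by their Ensembl identifiers among the 55332 genes with values, and no threshold on a measured value entered the list. Bulk RNA sequencing covered 13 tumors of mouse NUT carcinoma (mNC), an aggressive squamous cancer driven by a gene fusion. All 4 groups carried the NCT+/- alleles, in which a constitutive Cre makes the fusion at low frequency. Oral Sox2-WT tumors (n = 4) came from KRT14-Cre; NCT+/- mice, and oral Sox2-KO tumors (n = 2) are labelled KRT4Cre; NCT+/-; Sox2fl/fl, where the study's methods name KRT14-Cre. Pancreatic Sox2-WT tumors (n = 4) came from Pdx1-Cre; NCT+/- mice, and pancreatic Sox2-KO tumors (n = 3) are labelled Pdx1-Cre; NCT+/-; Sox2fl; fl, which is read here as homozygous for the floxed allele. KRT14-Cre acts in basal cells of oral mucosa, skin and salivary gland and Pdx1-Cre in pancreatic progenitors, so that tissue and Cre driver cannot be told apart in any oral against pancreatic difference. The ages of the mice were not given, and Sox2-WT mice carried no floxed Sox2 allele.

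Notch signaling passes between touching cells: a Jagged or Delta ligand on one cell pulls on a Notch receptor on its neighbor, ADAM and gamma-secretase proteases cut the receptor, and the freed intracellular domain joins the DNA-binding protein RBPJ to switch on genes of the Hes and Hey families and the feedback inhibitor Nrarp. In stratified epithelium the pathway is known for moving basal cells toward differentiation, and in the developing pancreas Hes1 is known for holding progenitors back from endocrine fate. Notch3 and Heyl are also known as genes of the vessel wall, where they mark pericytes and smooth muscle.

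Sox2 was at 410 to 1487 estimated counts in the 8 Sox2-WT tumors and at 0 to 2 in the 5 Sox2-KO tumors, as the genotype labels state. The basal keratinocyte gene Krt5 was present in all 13 tumors, with medians of 2424 CPM (counts scaled to library size with TMM factors) in oral Sox2-WT tumors, 1205 in oral Sox2-KO tumors, 5794 in pancreatic Sox2-WT tumors and 6415 in pancreatic Sox2-KO tumors. Library totals ran from 11735031 to 120482588 estimated counts, lowest in the oral Sox2-KO tumors and highest in the pancreatic Sox2-KO tumors, so that depth separates the genotypes in both tissues. Oral Sox2-KO tumor 1 stood apart, with 59.5% of its counts on protein-coding genes and 16.6% on the structural RNA Rn7s, against 84.5% to 91.7% protein-coding in the other tumors. Both oral Sox2-KO tumors held skeletal muscle RNA, with the 8 muscle markers summing to 2877 and 5194 CPM against 5.203 to 515 CPM in oral Sox2-WT tumors, and the defining marker Ttn was at 2538 and 4130 CPM. The part of library composition and muscle RNA in the differences below was not tested. In bulk tumors, fewer cells of a type and less RNA per cell cannot be told apart.

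All 10 genes are protein-coding in GENCODE M21 on GRCm38. Jag1 (chr2:137081456-137116644, minus strand) and Nrarp (chr2:25180758-25183339, plus strand), called between the tissues in both genotypes, share chromosome 2 with Notch1 (chr2:26457903-26516663, minus strand). Of the 31-base sequences in their transcripts, Notch2 shares 4.28% with the gene Gm42820 and Notch3 shares 1.35% with Gm30232, and no other member shares any, so that the values of these 2 are uncertain to that extent.

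The sequences directly upstream of these 2 genes are shown because both were lower in oral than in pancreatic tumors of either genotype. They come from the RefSeq promoter windows on GRCm38, cut to the bases before the GENCODE start, at chr2:25180508-25180757 (plus strand) for Nrarp and chr2:137116645-137116770 (minus strand) for Jag1. Capitals mark CACGTG, the E-box that Hes and Hey proteins are among those known to bind.
Nrarp: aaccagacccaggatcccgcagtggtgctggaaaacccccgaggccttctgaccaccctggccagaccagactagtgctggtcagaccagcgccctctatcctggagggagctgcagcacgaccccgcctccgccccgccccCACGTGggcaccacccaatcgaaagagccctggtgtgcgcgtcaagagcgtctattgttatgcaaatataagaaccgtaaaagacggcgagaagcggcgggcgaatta
Jag1: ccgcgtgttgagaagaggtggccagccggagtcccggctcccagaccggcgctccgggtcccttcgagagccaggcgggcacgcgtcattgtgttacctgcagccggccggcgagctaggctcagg
The CACGTG of Nrarp begins 108 bases before its start. RefSeq windows were given for 7 of the 10 members, 8 windows in all. The targets Hes1, Hey1 and Heyl had none, so that Nrarp was the only target covered. CACGTG, which reads the same on both strands, was in 1 of the 8, against 6.02% of all 32851 windows of 250 bases. The letters TGGGAA, the core of the sequence that RBPJ is known to bind, were in 0 of the 8 on either strand, against 21.6% of all windows. A match is a description of the letters in these windows and no measure of binding.

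Per length, Jag1 had the highest mean in every group, while Heyl, Dll1 and Hey1 had the 3 lowest. On the scale of CPM per kb of merged exons, Jag1 was at 58.0 ± 26.7 (SD, n = 4) in oral Sox2-WT tumors and 170.5 ± 41.0 (SD, n = 4) in pancreatic Sox2-WT tumors. In pancreatic Sox2-WT tumors Hes1 (71.8 ± 9.02, SD, n = 4) and Nrarp (68.8 ± 9.56, SD, n = 4) came next, and their ranges overlapped. In oral Sox2-WT tumors the range of each of the 7 highest genes overlapped with that of its neighbor in the order, and the gap below them separated Notch3 (14.7 ± 3.31, SD, n = 4) from Heyl (4.31 ± 2.03, SD, n = 4). The 3 lowest genes were at or below 4.31 CPM per kb on average in every group.

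In Sox2-WT tumors the receptor makeup differed between tissues on this scale. Of the summed level per kb of Notch1, Notch2 and Notch3, Notch1 made up 48.9% ± 6.13 (SD, n = 4) in oral Sox2-WT tumors and 30.9% ± 2.06 (SD, n = 4) in pancreatic Sox2-WT tumors, with ranges of 42.5% to 57.3% and 28.7% to 33.7%. Notch3 made up 25.2% ± 5.29 (SD, n = 4) and 39.9% ± 1.95 (SD, n = 4) in the same groups. In Sox2-KO tumors the tissues overlapped in both shares. Notch1 was at 37.4% and 45.2% in oral and 31.6% to 42.8% in pancreatic Sox2-KO tumors, and Notch3 at 28.2% and 31.3% against 30.9% to 40.0%. The order of Notch1 and Notch3 in pancreatic Sox2-WT tumors depends on the length used, with Notch3 above Notch1 per kb of merged exons (27.6 against 21.4) and below it per kb of the longest transcript (27.9 against 32.1). Among the ligands, Jag1 made up 90.5% ± 1.18 (SD, n = 4) of the summed level per kb in pancreatic Sox2-WT tumors and 63.7% ± 16.3 (SD, n = 4) in oral Sox2-WT tumors. The oral spread came from tumor 3, in which Jag1 was at 39.7% and Jag2 at 55.3%, the 1 tumor of 13 with more Jag2 than Jag1.

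**Figure D1:**
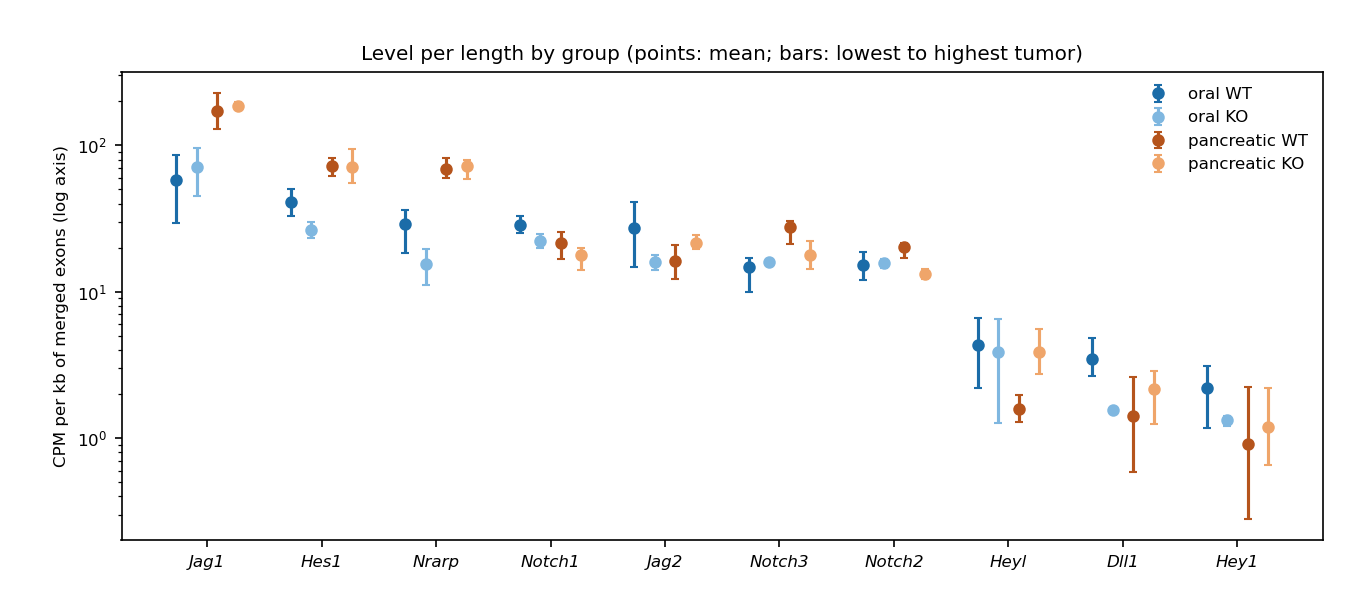
Level of each gene in CPM per kb of merged exons on a log axis, by group, with the mean as a point and the lowest and highest tumor as the bar ends. Jag1 is highest in all 4 groups and Heyl, Dll1 and Hey1 are the 3 lowest, with Hes1, Nrarp and Jag1 split between the blue oral and the orange pancreatic groups.

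The first comparison asked whether loss of Sox2 changed the Notch genes of oral tumors. No member was called, a call being an adjusted p below 0.05 with a log2 fold change beyond 1 in either direction (edgeR quasi-likelihood test, Benjamini-Hochberg adjustment over 22342 genes), while 11.7% of all genes tested were called. That share depended on which tumor was left out, on the genes counted and on the fit. It was 0.324% without oral Sox2-WT tumor 1, 0.163% without tumor 2, 5.48% without tumor 3 and 12.2% without tumor 4. With protein-coding genes alone it was 0.165%, and with tumor number as a block 0.291%. It also fell without either Sox2-KO tumor, which leaves 1 tumor in that group. At an unadjusted p below 0.05 there were 2 members, Dll1 and Nrarp, against 35.4% of all genes, and DESeq2 called 1, Dll1, against 17.9% of all genes. In 7 of the 10 members the log2 fold change was negative, and the median was -0.42 against -0.0030 over all genes tested.

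Of the receptors, Notch1, the main receptor of keratinocytes, was at 284 and 351 CPM in the 2 oral Sox2-KO tumors and at 357, 419, 468 and 376 CPM in oral Sox2-WT tumors 1 to 4. The Sox2-KO values lay below all 4 Sox2-WT values, the nearest pair being 351 and 357 CPM. The log2 fold change was -0.28 ± 0.21 (SE), with an edgeR adjusted p of 0.372. Notch2, a receptor of wide expression, had a log2 fold change of 0.12 ± 0.22 (SE) and Notch3 of 0.21 ± 0.24 (SE), and the genotypes overlapped in both.

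Of the ligands, Dll1, a Delta ligand of low level here, was at 6.85 and 6.24 CPM in the oral Sox2-KO tumors and at 11.2, 11.4, 15.7 and 20.3 CPM in the oral Sox2-WT tumors. All Sox2-KO values lay below all Sox2-WT values, and the log2 fold change of -1.08 ± 0.34 (SE) had an edgeR adjusted p of 0.0724. The groups of 3 members, Notch1, Dll1 and Hes1, did not overlap, each lower in Sox2-KO tumors, and 25.5% of all genes tested were lower in the same way. Scaled to protein-coding genes alone, Notch1 also overlapped, at 378 and 462 CPM in Sox2-KO tumors against 412 to 525 CPM in Sox2-WT tumors, and Dll1 did not. Jag1 spread widely inside both genotypes, at 263 and 563 CPM in Sox2-KO tumors and from 170.4 to 499 CPM in Sox2-WT tumors. Jag2, a second Jagged ligand of epithelia, was at 124 and 98.5 CPM in Sox2-KO tumors and from 102 to 284 CPM in Sox2-WT tumors, overlapping by tumor 4.

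Of the targets, Hes1, a repressor of differentiation genes, was at 60.6 and 47.4 CPM in the oral Sox2-KO tumors and at 103, 92.8, 73.8 and 66.9 CPM in the oral Sox2-WT tumors. The Sox2-KO values were the lowest of the 6, though scaled to protein-coding genes alone the genotypes overlapped, at 80.5 and 62.4 CPM against 76.7 to 119 CPM, and the log2 fold change was -0.56 ± 0.24 (SE), with an edgeR adjusted p of 0.142. Nrarp, which limits Notch activity by binding the intracellular domain, was at 50.9 and 28.6 CPM in Sox2-KO tumors and at 76.0, 81.99, 47.5 and 92.7 CPM in Sox2-WT tumors. Sox2-WT tumor 3 lay below Sox2-KO tumor 1, and the log2 fold change was -0.82 ± 0.34 (SE), with an edgeR adjusted p of 0.133. Heyl, at 6.45 and 33.2 CPM, differed more between the 2 Sox2-KO tumors than between the genotype means, and Hey1, at 3.97 and 4.64 CPM, lay inside the Sox2-WT range of 3.81 to 10.1 CPM.

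**Figure D2:**
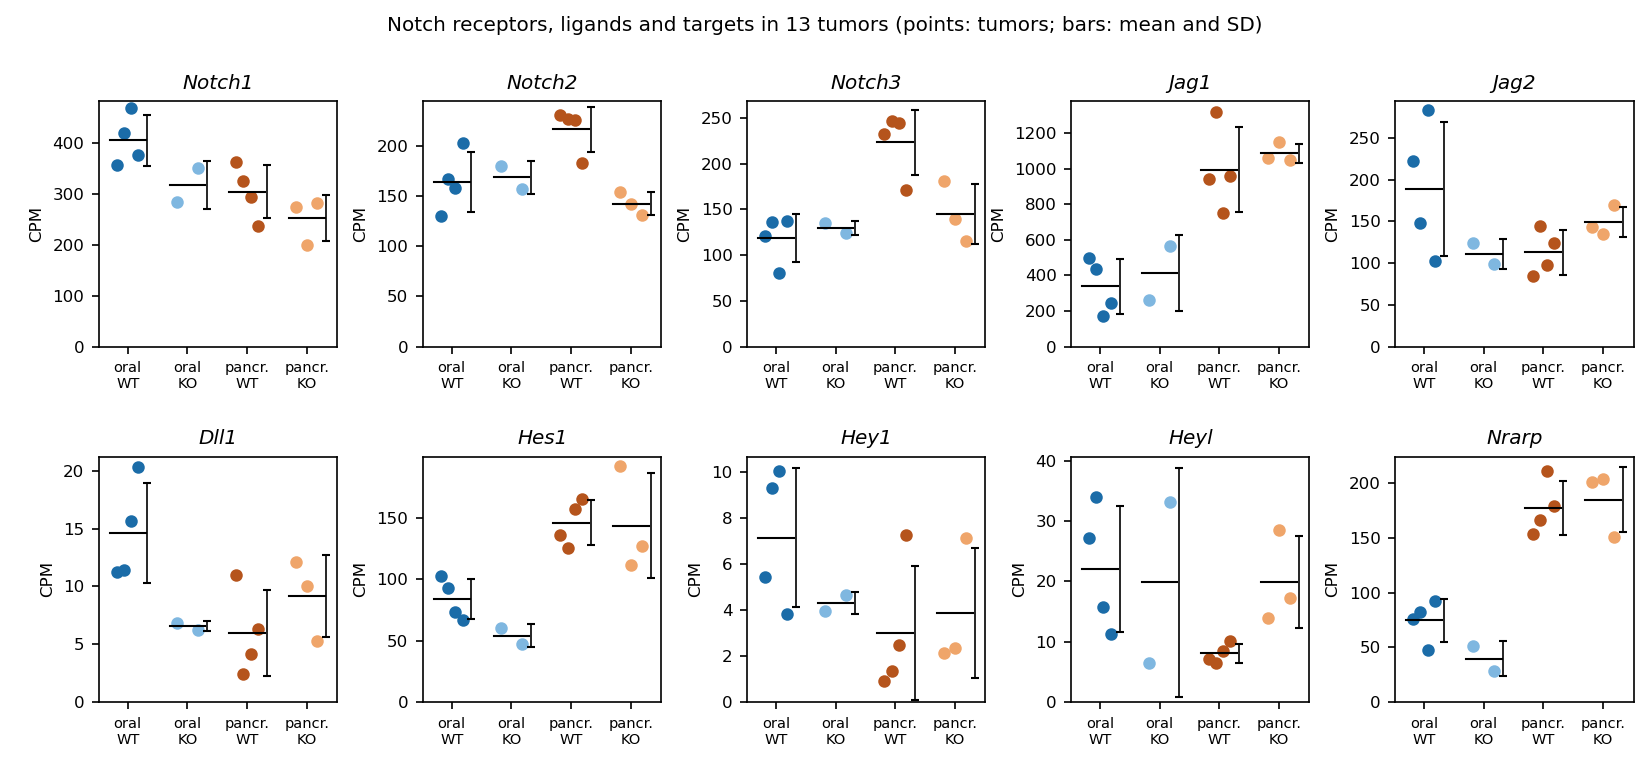
CPM of each of the 10 genes (vertical axes, each starting at 0) in the 13 tumors, by tissue and genotype, with 1 point per tumor, the mean as a horizontal line and the SD as the error bar. Jag1, Hes1 and Nrarp are higher in every pancreatic than in every oral tumor, and Heyl is higher in the 3 pancreatic Sox2-KO tumors than in the 4 pancreatic Sox2-WT tumors.

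The same comparison in pancreatic tumors also called no member (edgeR quasi-likelihood test, adjusted over 24653 genes), where 0.629% of all genes tested were called, a share that ran from 0.175% to 1.09% with 1 tumor left out, falling without any tumor but Sox2-WT tumor 4. Of the members, 3 (Heyl, Notch2 and Notch3) had an unadjusted p below 0.05, against 15.9% of all genes, and DESeq2 called 1, Heyl, against 4.52% of all genes. The members had a median log2 fold change of 0.11, where all genes tested had 0.02.

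The 3 receptors all had negative log2 fold changes in the pancreas. Notch2 was at 154, 142 and 131 CPM in pancreatic Sox2-KO tumors 1 to 3 and at 230.2, 226, 226 and 183 CPM in Sox2-WT tumors 1 to 4. All 3 Sox2-KO values lay below all 4 Sox2-WT values, and the log2 fold change of -0.59 ± 0.12 (SE) had an edgeR adjusted p of 0.0717. That adjusted p fell to 0.0422 without Sox2-WT tumor 4 and rose to between 0.132 and 0.183 without any other 1 tumor. It was 0.0408 in edgeR with tumor number as a block, and DESeq2 gave 0.00116. The log2 fold change stayed short of the fold threshold in all of these. Notch3 was at 181, 139 and 116 CPM in Sox2-KO tumors and at 232, 246, 244 and 171 CPM in Sox2-WT tumors. Sox2-WT tumor 4 lay below Sox2-KO tumor 1, and the log2 fold change of -0.61 ± 0.18 (SE) had an edgeR adjusted p of 0.165. For Notch1 the change was -0.26 ± 0.18 (SE), and the genotypes overlapped.

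The ligands overlapped between the genotypes in the pancreas. Jag1 was at 1061, 1149.9 and 1048 CPM in Sox2-KO tumors, inside the Sox2-WT range of 748 to 1321 CPM. Jag2 had a log2 fold change of 0.42 ± 0.19 (SE, edgeR adjusted p = 0.338) and Dll1 of 0.62 ± 0.50 (SE, edgeR adjusted p = 0.606).

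Of the targets, Heyl had the largest fold change of the 10 genes in the pancreas. It was at 14.0, 28.6 and 17.2 CPM in Sox2-KO tumors and at 7.19, 6.54, 8.48 and 10.1 CPM in Sox2-WT tumors. All 3 Sox2-KO values lay above all 4 Sox2-WT values, 2.48 times on average in the fit, and the log2 fold change of 1.31 ± 0.27 (SE) had an edgeR adjusted p of 0.0752. DESeq2 gave 1.31 with an adjusted p of 0.000849, and edgeR without a count filter gave 1.35 with an adjusted p of 0.0385, so the call depends on tool and filter. Without Sox2-KO tumor 2 the log2 fold change was 0.97 and the edgeR adjusted p 0.167. Hes1 (log2 fold change -0.01 ± 0.19, SE) and Nrarp (0.07 ± 0.15, SE), the more abundant targets, had fold changes smaller than their standard errors. Heyl and Notch2 were the 2 members whose genotypes did not overlap, 1 higher and 1 lower, against 15.6% of all genes in either direction.

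Fibroblast, endothelial and mural markers were set beside Heyl in the pancreas. Their sums overlapped between the genotypes, and edgeR called no gene of the 3 lists, against 0.629% of all genes tested. The 6 fibroblast markers summed to 1454 to 2567 CPM in Sox2-KO tumors and 790 to 1504 CPM in Sox2-WT tumors, with all 6 log2 fold changes above 0 and 2 of 6 not overlapping. The 8 endothelial markers summed to 142 to 198 CPM and 112 to 160 CPM, with 7 of 8 log2 fold changes above 0 and 1 of 8 not overlapping. The 8 mural markers, of pericytes and smooth muscle, summed to 629 to 795 CPM and 356 to 828 CPM, with 7 of 8 above 0 and 2 of 8 not overlapping. Of all genes tested, 15.6% did not overlap in either direction, and 12957 of 24653 had log2 fold changes above 0. No gene of these 3 lists was at 0 in any tumor. Pancreatic Sox2-KO tumor 2, the highest in Heyl, was also the highest of the 7 pancreatic tumors in the fibroblast and endothelial sums. In the mural sum it was at 683 CPM, below the highest Sox2-WT tumor at 828 CPM. Differentiated keratinocyte sums did not overlap, at 548 to 2218 CPM in Sox2-KO and 3837 to 7397 CPM in Sox2-WT tumors. The part of these cell types in the Heyl difference was not tested.

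**Figure D3:**
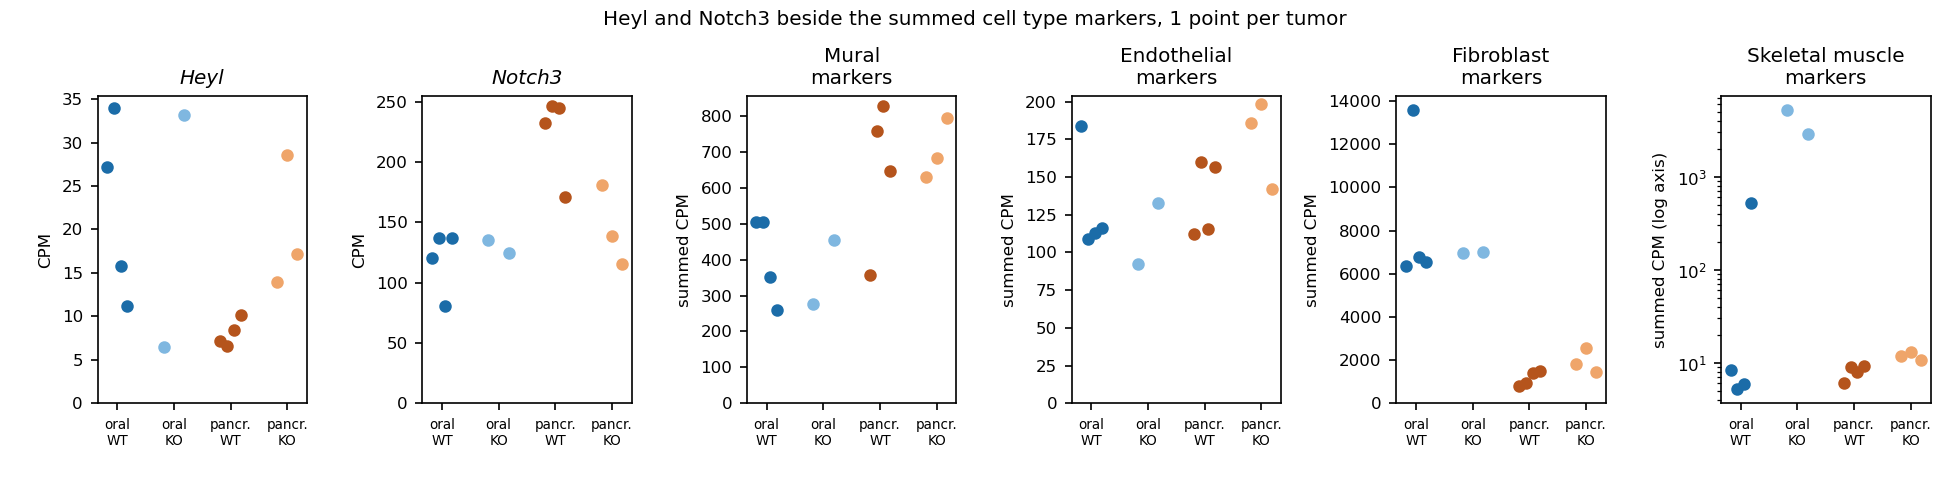
Heyl and Notch3 in CPM and the summed CPM of mural, endothelial, fibroblast and skeletal muscle markers in the 13 tumors by group, 1 point per tumor, with a log axis for skeletal muscle alone. Pancreatic Sox2-KO tumor 2 is highest of the pancreatic tumors in Heyl (28.6 CPM), in endothelial markers (198 CPM) and in fibroblast markers (2567 CPM), but not in mural markers (683 CPM). Skeletal muscle markers are highest in the 2 oral Sox2-KO tumors.

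The third comparison set oral against pancreatic Sox2-WT tumors, and it uses the same Sox2-WT tumors as the genotype comparisons above. Jag1 and Nrarp were lower and Heyl was higher in oral tumors, 3 of 10 members called against 16.5% of all 23164 genes tested. Hes1 and Notch3 passed the adjusted p threshold below the fold threshold, which made 5 of 10 with an adjusted p below 0.05, against 23.7% of all genes. The members' median log2 fold change was 0.0065 with 5 above 0 and 5 below, against 0.0046 over all genes.

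Jag1, the ligand with the highest level per length, was at 499, 438, 170.4 and 245 CPM in oral Sox2-WT tumors 1 to 4 and at 943, 1321, 748 and 961 CPM in pancreatic Sox2-WT tumors 1 to 4. Every oral tumor lay below every pancreatic tumor. The mean was 338 ± 156 CPM (SD, n = 4) against 993 ± 239 CPM (SD, n = 4), a log2 fold change of -1.55 ± 0.34 (SE) with an edgeR adjusted p of 0.0127. Nrarp was at 76.0, 81.99, 47.5 and 92.7 CPM in oral tumors and at 153, 167, 211 and 179 CPM in pancreatic tumors. The ranges lay apart, and the log2 fold change was -1.25 ± 0.21 (SE), with an edgeR adjusted p of 0.00369.

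Basal keratinocyte markers were lower in oral tumors beside these genes, with sums of 4437 to 8188 CPM against 8681 to 15841 CPM. Of the 7, 4 were called lower and 1 higher, against 1677 lower and 2155 higher of all 23164 genes tested. In Sox2-KO tumors these markers summed to 3611 to 4418 CPM in oral and 12819 to 14605 CPM in pancreatic tumors. There 5 of 7 were called lower, against 10.7% of all genes. The part of basal keratinocyte RNA in the differences of Jag1, Nrarp and Hes1 was not tested.

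Hes1 showed the same order at a smaller size. The oral values given above, 66.9 to 103 CPM, lay below the pancreatic values of 136, 126, 157 and 166 CPM, with a log2 fold change of -0.80 ± 0.16 (SE) and an edgeR adjusted p of 0.00887. Notch3, at 121, 137, 80.2 and 137 CPM in oral tumors, lay below its pancreatic values of 171 to 246 CPM. Its log2 fold change was -0.91 ± 0.20 (SE), with an edgeR adjusted p of 0.0113. Without pancreatic Sox2-WT tumor 4 the Notch3 log2 fold change was -1.002 and it was called, as was Hey1, which made 5 members in place of 3.

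Heyl went the other way. It was at 27.2, 34.0, 15.8 and 11.2 CPM in oral tumors, all above the pancreatic range of 6.54 to 10.1 CPM, and the log2 fold change was 1.45 ± 0.34 (SE) with an edgeR adjusted p of 0.0158. The fibroblast markers differed in the same direction, summing to 6343 to 13591 CPM in oral and 790 to 1504 CPM in pancreatic Sox2-WT tumors, with 5 of 6 called higher in oral tumors. The mural markers did not, at 261 to 506 CPM and 356 to 828 CPM, with 1 called higher and 1 lower, and the endothelial markers were at 109 to 184 CPM and 112 to 160 CPM. Of all 23164 genes tested, 2155 were called higher and 1677 lower in oral tumors. The part of fibroblast RNA in the Heyl difference was not tested.

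The other members did not pass in this comparison. Dll1 was higher in every oral (11.2 to 20.3 CPM) than in every pancreatic tumor (2.46 to 11.02 CPM), with a log2 fold change of 1.29 ± 0.44 (SE) and an edgeR adjusted p of 0.0619. It was called by DESeq2 (adjusted p = 0.0148), which called 19.4% of all genes, and by edgeR without pancreatic Sox2-WT tumor 1, at 1.78 and an adjusted p of 0.0174. In all, 6 of 10 members did not overlap, 2 higher and 4 lower in oral tumors, against 27.9% of all genes in either direction. Notch1 (log2 fold change 0.41 ± 0.16, SE), Notch2 (-0.40 ± 0.15, SE), Jag2 (0.75 ± 0.31, SE) and Hey1 (1.25 ± 0.64, SE) overlapped between the tissues.

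**Figure D4:**
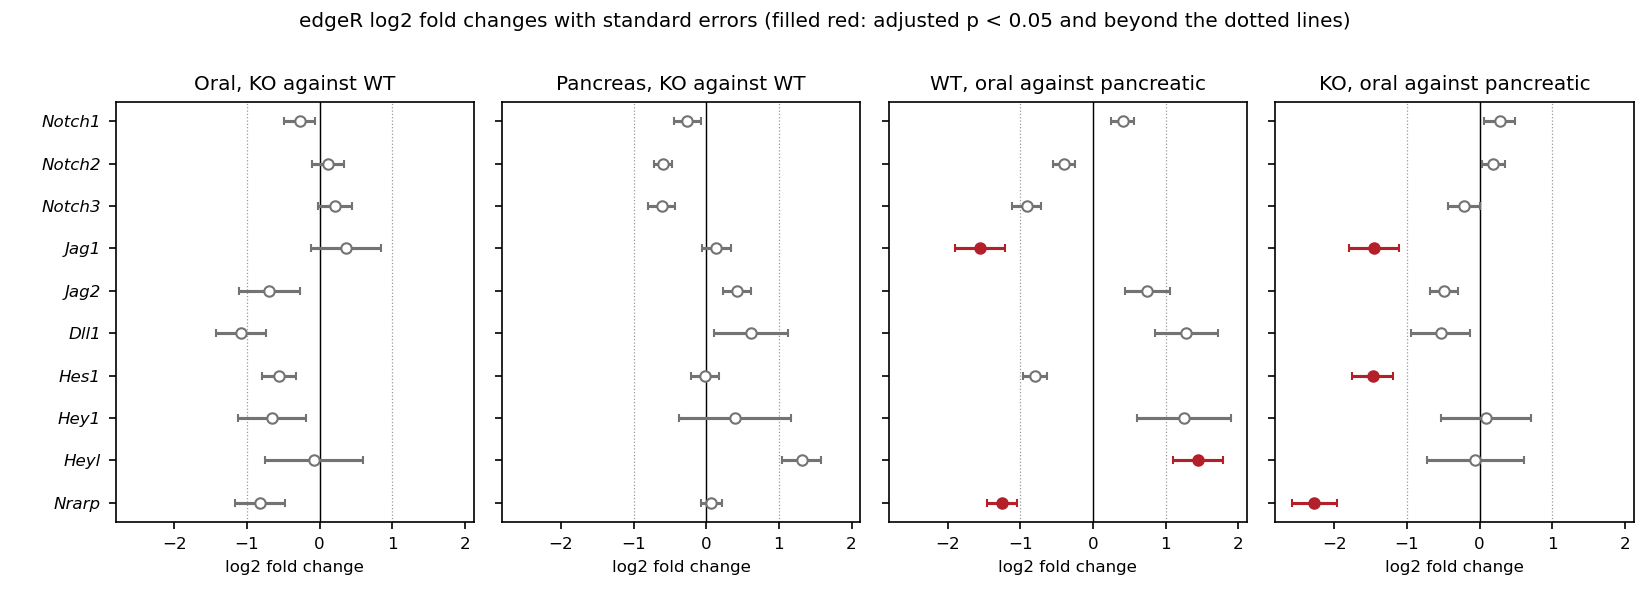
Log2 fold change with its standard error for each of the 10 genes in the 4 comparisons, with dotted lines at the fold threshold and called genes filled red. No member is filled in either comparison of Sox2-KO with Sox2-WT, and 3 are filled in each comparison of oral with pancreatic tumors, with Jag1 and Nrarp lower in oral tumors in both.

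In Sox2-KO tumors, oral against pancreatic, 3 of 10 members were called, Jag1, Hes1 and Nrarp, all lower in oral tumors, against 25.2% of all 24787 genes tested in either direction and 10.7% in this one. This comparison rests on 2 oral tumors, 1 of them the library low in protein-coding counts, and it shares no tumor with the Sox2-WT comparison.

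Nrarp differed most. Its oral values of 50.9 and 28.6 CPM lay below the pancreatic values of 201, 204 and 151 CPM, a log2 fold change of -2.27 ± 0.31 (SE) with an edgeR adjusted p of 0.00839. Hes1, at 60.6 and 47.4 CPM against 193, 112 and 127 CPM, also lay apart, with a log2 fold change of -1.47 ± 0.28 (SE) and an edgeR adjusted p of 0.0157. Without oral Sox2-KO tumor 2 the Hes1 adjusted p was 0.0762 at a log2 fold change of -1.27. Nrarp was called with each of the 5 tumors left out in turn.

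Jag1, at 263 and 563 CPM in oral and 1048 to 1149.9 CPM in pancreatic Sox2-KO tumors, had a log2 fold change of -1.46 ± 0.34 (SE) with an edgeR adjusted p of 0.0250. The call was lost without any 1 of the 3 pancreatic tumors, at adjusted p values of 0.0567 to 0.0698. It was also lost without oral tumor 1, at a log2 fold change of -0.96, and with protein-coding genes alone, at -1.18 and an adjusted p of 0.0543. With protein-coding genes alone, the median of all shared genes rose by 0.28 on the log2 scale in this comparison.

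The receptors did not differ between the tissues past the test in Sox2-KO tumors. Notch3 had a log2 fold change of -0.21 ± 0.22 (SE), against -0.91 in Sox2-WT tumors, and the difference between these, tested as the interaction given below, was 0.75 ± 0.31 (SE) with an edgeR adjusted p of 0.115. Notch2 had a log2 fold change of 0.19 ± 0.16 (SE), and Heyl, whose 2 oral values of 6.45 and 33.2 CPM enclosed all pancreatic ones, of -0.06 ± 0.67 (SE). Counting groups that did not overlap, 2 members were higher and 4 lower in oral Sox2-KO tumors, and 61.5% of all genes tested lay apart in one direction or the other.

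Whether the effect of Sox2 loss differed between the tissues was tested as an interaction in 1 fit of all 13 tumors. No member was called (edgeR quasi-likelihood test, adjusted over 25836 genes) against 12.3% of all genes, with 5 members at an unadjusted p below 0.05 against 34.0% of all genes, and DESeq2 called 2, Dll1 and Nrarp, against 18.4% of all genes. The largest estimates were -1.77 ± 0.69 (SE) for Dll1, -1.44 ± 0.77 (SE) for Heyl and -1.18 ± 0.45 (SE) for Jag2, where a negative value means a lower Sox2-KO to Sox2-WT ratio in oral than in pancreatic tumors. Their edgeR adjusted p values were 0.0944, 0.205 and 0.0929, and that of Notch2 (0.64 ± 0.23, SE) was 0.0724. The Heyl estimate ran from -3.07 to -0.76 with 1 tumor left out. The -3.07 was without oral Sox2-KO tumor 2, where oral Sox2-KO tumor 1 alone made up its group. With 1 Sox2-WT tumor left out, edgeR called Nrarp without oral tumor 3 (adjusted p = 0.0378) and Jag2 without oral tumor 4 (adjusted p = 0.0266). It called Dll1 without pancreatic tumor 1 (adjusted p = 0.0397). With all 13 tumors, a difference between the tissues in the effect of Sox2 loss was not shown for any member by edgeR.

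Beyond the 10 members, 53 further genes of the pathway were listed by role, of which 50 passed the count filter in each comparison. With loss of Sox2 in oral tumors, 2 of 50 were called, both lower, against 11.7% of all genes tested. They were Cir1, a corepressor partner of RBPJ, with a log2 fold change of -1.21 ± 0.23 (SE) and an edgeR adjusted p of 0.0251, and Snw1, a splicing and transcription cofactor also known as SKIP that binds the Notch intracellular domain, with -1.05 ± 0.27 (SE) and 0.0442. Cir1 was at 12.3 and 15.1 CPM in Sox2-KO tumors against 29.5 to 38.9 CPM in Sox2-WT tumors. With protein-coding genes alone neither was called, at -1.02 for Cir1 and -0.85 for Snw1, and the median of all shared genes shifted by 0.19 on the log2 scale. Without oral Sox2-WT tumor 1 or 2, or without either Sox2-KO tumor, neither was called, with adjusted p values of 0.0557 to 0.110 for Cir1 and 0.0655 to 0.164 for Snw1, and Snw1 was also lost without Sox2-WT tumor 3 or 4.

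The 9 genes of ligand and receptor processing, which include the ADAM proteases and the gamma-secretase subunits, all had negative log2 fold changes in oral tumors, with a median of -0.75 against -0.0030 over all genes. None was called in the main edgeR fit, and 7 of 9 had an unadjusted p below 0.05 against 35.4% of all genes. DESeq2 called 3, Psen2, Aph1b and Furin, against 17.9%, and edgeR called the same genes in 1 fit of all 13 tumors, against 19.7%. Furin, at -0.9998 in the main fit, was also called by edgeR without a count filter (7.52% of all genes) and without oral Sox2-WT tumor 4 (12.2%). In the main edgeR fit 4 of 9 passed the adjusted p threshold below the fold threshold, against 13.8% of all genes. The gamma-secretase subunit Psenen (-0.75 ± 0.18, SE, edgeR adjusted p = 0.0380) was among them. The libraries of the oral Sox2-KO tumors were also the smallest, and the part of depth and composition in this was not tested.

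In pancreatic tumors none of the 50 was called in the main edgeR fit or by DESeq2, 9 had an unadjusted p below 0.05 against 15.9% of all genes, and the median log2 fold change was 0.06. Tle1, a Groucho corepressor that Hes proteins recruit, was the 1 gene with an adjusted p below 0.05, at 66.7 to 77.3 CPM in Sox2-KO against 31.1 to 44.5 CPM in Sox2-WT tumors. Its log2 fold change of 0.92 ± 0.14 (SE, edgeR adjusted p = 0.0396) stayed below the fold threshold in this fit. It was called higher in Sox2-KO tumors by edgeR without pancreatic Sox2-WT tumor 4. With tumor number as a block edgeR also called it, together with Dtx3 and Numbl.

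Between oral and pancreatic Sox2-WT tumors 6 of 50 were called, 4 higher and 2 lower in oral tumors, against 16.5% of all genes. The noncanonical ligand Dlk1 had a log2 fold change of 5.06 ± 0.98 (SE, edgeR adjusted p = 0.00766), with oral values from 1.08 to 41.0 CPM and pancreatic values from 0.315 to 0.937 CPM. The endothelial receptor Notch4 was lower in oral tumors, at 7.42 to 16.7 CPM against 17.1 to 37.5 CPM, with a log2 fold change of -1.59 ± 0.34 (SE, edgeR adjusted p = 0.0103). Adam10, the protease that makes the first ligand-dependent cut of the receptor, was at 151 to 264 CPM in oral and 353 to 566 CPM in pancreatic tumors. Its log2 fold change was -1.22 ± 0.21 (SE, edgeR adjusted p = 0.00425). The ubiquitin ligase Dtx3 (1.46 ± 0.28, SE, edgeR adjusted p = 0.00651) and the Notch inhibitor Numbl (1.24 ± 0.33, SE, edgeR adjusted p = 0.0252) were higher in oral tumors. The Numbl call was lost without oral tumor 3 or pancreatic tumor 1 or 3, at adjusted p values of 0.0515 to 0.0660.

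Between oral and pancreatic Sox2-KO tumors 10 of 50 were called, 2 higher and 8 lower in oral tumors, against 25.2% of all genes. Of the 8 lower genes, 5 were proteases or gamma-secretase subunits, and all 9 genes of that list had negative log2 fold changes and a median of -1.10. Their ranges did not overlap, which was so for 61.5% of all genes in this comparison of 2 tumors against 3. Psenen was at 26.5 and 29.1 CPM in oral and 61.0 to 76.0 CPM in pancreatic tumors (-1.36 ± 0.17, SE, edgeR adjusted p = 0.00768). Tle1 (-1.03 ± 0.16, SE, edgeR adjusted p = 0.0106) lost the call with protein-coding genes alone, at -0.76, and without oral tumor 1 or pancreatic tumor 1 or 3, at -0.98 to -0.91. The 2 called higher, Hes2 (2.59 ± 0.63, SE, edgeR adjusted p = 0.0270) and the ligand Dll3 (1.93 ± 0.50, SE, edgeR adjusted p = 0.0314), rest on 11 to 16 estimated counts in each oral Sox2-KO tumor. Both lost the call without oral tumor 1 or any 1 of the pancreatic tumors.

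**Figure D5:**
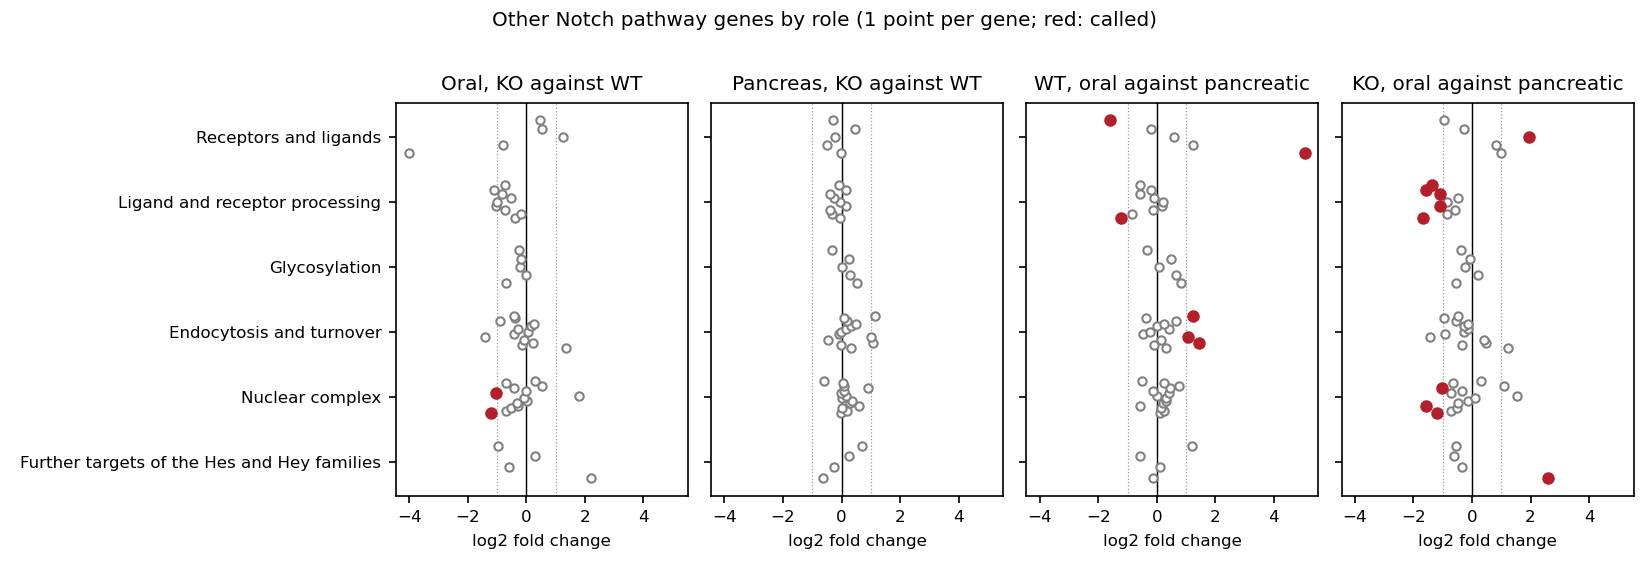
Log2 fold change of the other Notch pathway genes that passed the count filter, 1 point per gene, by role and comparison, with dotted lines at the fold threshold and called genes in red. No gene is red in the pancreatic comparison of Sox2-KO with Sox2-WT, and the ligand and receptor processing genes all lie left of 0 in oral Sox2-KO tumors against either of the other groups shown.

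Of the remaining genes named whatever their values, Rbpj, the DNA-binding partner of all Notch receptors, was at 45.6 to 76.7 CPM over the 13 tumors, with log2 fold changes from -0.08 to 0.30 in the 4 comparisons. The endothelial ligand Dll4 was at 2.32 to 9.66 CPM and overlapped between the groups of all 4 comparisons. Lfng, a glycosyltransferase that alters how receptors respond to ligands, was at 12.8 and 15.1 CPM in oral Sox2-KO tumors, below the 16.5 to 33.8 CPM of oral Sox2-WT tumors, with a log2 fold change of -0.71 ± 0.36 (SE, edgeR adjusted p = 0.198). Hey2 did not exceed 2.31 CPM in any tumor. Hes5, a target best known in neural progenitors, had at most 24 estimated counts in any tumor and did not pass the filter in the 4 comparisons.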

How the data were processed

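The authors trimmed reads of stranded, rRNA-depleted total RNA with Trim Galore 0.6.10, checked them with FastQC 0.12.1, quantified them with kallisto 0.50.0 on GENCODE mouse transcripts of GRCm38 and summed them per gene, and they deposited the unscaled estimated counts of each gene. Of these values, 27.3% had a fractional part, and 753 rows were blank and left out. Here symbols came from GENCODE M21, whereas the authors quantified a later GENCODE release on the same build. Counts were rounded, and each comparison kept genes reaching 10 counts in 2 or more of its tumors and tested them with edgeR 4.0.16 (TMM, robust quasi-likelihood fit) in R 4.3.3. P-values were adjusted by Benjamini-Hochberg over all genes tested, and a call needed an adjusted p below 0.05 together with a log2 fold change beyond 1 in either direction. The pipeline was tested on simulated data. Alternatives were DESeq2 1.42.0, its size factors, no count filter, protein-coding genes alone, counts thinned to the smallest library, 1 fit of all 13 tumors, tumor number as a block and leaving out each tumor.

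Groups came from the sample labels, which do not say whether tumors came from separate mice, so the p-values measure the spread between these samples. Depth, from 11735031 to 120482588 estimated counts per tumor, limits precision most for Dll1, Hey1 and Heyl, which had 69, 35 and 65 counts in their lowest tumor. The 10 members, the 53 further pathway genes and the cell type markers were chosen with earlier results of these data known. Named from the further genes were, per comparison, up to 3 called genes per direction with the smallest adjusted p, and Notch4, Dll4, Hey2, Hes5, Rbpj and Lfng whatever their values. The values of 1 gene that this rule would name are not reported here. For Notch1, Notch3, Jag2, Hes1 and Heyl the 3 most similar genes were named by the root mean square difference of centered log2 CPM (prior count 2).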

Additional observations from a re-analysis of the deposited data

Results flagged for a closer look

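Notch2 was lowest in pancreatic Sox2-WT tumor 4, at 183 CPM against 226 to 230.2 CPM in the other 3, and the gap to the nearest tumor was 0.902 of the group's range, above Dixon's critical value for 4 samples. Among the 20 groups of 4 tumors examined this way (10 genes in 2 groups), it was the 1 gap past that value, and chance gives about 1 in 20. The Notch2 difference between genotypes had an edgeR adjusted p of 0.0422 without this tumor, 0.0717 with it and 0.132 to 0.183 without any other 1 pancreatic tumor. In the interaction of tissue and Sox2 loss, tested with edgeR over 25836 genes, 3 named pathway genes passed with all 13 tumors, and each lost the call under some alternatives. Cir1 had an estimate of -1.24 ± 0.29 (SE, edgeR adjusted p = 0.0190), with an adjusted p of 0.0562 with thinned counts and 0.0676 without oral Sox2-KO tumor 2. It was at 12.3 to 15.1 CPM in oral Sox2-KO, 29.5 to 38.9 CPM in oral Sox2-WT, 24.7 to 33.2 CPM in pancreatic Sox2-KO and 25.5 to 39.7 CPM in pancreatic Sox2-WT tumors. Snw1 had an estimate of -1.09 ± 0.28 (SE, edgeR adjusted p = 0.0263), which was -0.89 with protein-coding genes alone and then below the fold threshold. Its adjusted p was 0.0590 with the replicate block and 0.0562 to 0.0694 without either oral Sox2-KO tumor, pancreatic Sox2-WT tumor 3 or pancreatic Sox2-KO tumor 3, and its estimate was -0.94 with thinned counts and -0.90 without oral Sox2-WT tumor 3. Tle1 had an estimate of -1.42 ± 0.32 (SE, edgeR adjusted p = 0.0169), with its Sox2-KO values above all Sox2-WT values in the pancreas and below them in oral tumors, and its adjusted p was 0.0559 without oral Sox2-KO tumor 1. In this interaction 6 of the 50 further pathway genes were called, all with a negative estimate, against 12.3% of all genes, and the others were Psen2, Furin and Dtx4.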

How the results depend on the processing

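The alternatives changed counts of calls as follows, the cause not being tested unless stated. Of members, DESeq2 called 1 in oral Sox2-KO against WT, 1 in pancreatic Sox2-KO against WT and 2 in the interaction, and the missing count filter called 1 in the pancreas. Leaving out 1 tumor gave 3 to 5 members between the Sox2-WT tissues, with 5 without pancreatic WT tumor 4, and 0 to 1 in the interaction. With the tumor number as replicate block the Sox2-WT tissue difference of Heyl was 1.34 at an adjusted p of 0.0694, leaving 2 members. Of the further pathway genes, oral Sox2-KO against WT gave 4 without a filter, 7 with DESeq2, 0 with protein-coding genes alone, 1 with thinned counts, 9 in 1 fit of all tumors and 0 with the replicate block, and 0 to 4 leaving out 1 tumor. No call remained without oral WT tumor 1 or 2 or without either oral KO tumor. The pancreas gave 3 with the replicate block and 0 to 1 leaving out 1 tumor. Between the Sox2-KO tissues protein-coding genes alone gave 6, thinned counts 4 and the replicate block 5, with 4 to 8 leaving out 1 tumor. The interaction gave 11 with DESeq2, 2 with protein-coding genes alone, 3 with thinned counts and 2 with the replicate block, with 2 to 11 leaving out 1 tumor, 2 without oral KO tumor 1, pancreatic WT tumor 3 or pancreatic KO tumor 3, 3 without oral KO tumor 2 and 11 without pancreatic WT tumor 4. Over all genes, the replicate block moved the calls from 2614 to 65 in oral tumors and from 155 to 590 in pancreatic tumors, and protein-coding genes alone left 27 and 10. Of 11 same-numbered pairs of tumors, 1 had a correlation of deviations above 0.1 (range -0.080 to 0.32), that of pancreatic Sox2-WT tumor 1 with Sox2-KO tumor 1. With so few tumors per group these correlations cannot decide whether the numbers pair the tumors. Log2 fold changes that changed sign were small or unstable. In oral Sox2-KO against WT, Jag1 was -0.19 with the replicate block and -0.24 to 0.80 leaving out 1 tumor, Heyl 0.12 with protein-coding genes alone and -1.65 to 0.65, Rbpj 0.12 with protein-coding genes alone, 0.065 with the block and -0.14 to 0.0069, and Notch2 -0.0080 to 0.25. In the pancreas Hes1 was 0.023 without a filter, 0.020 with the block and -0.27 to 0.15, Hey1 -0.40 to 1.33, Nrarp -0.0082 to 0.20, and Rbpj -0.0013 in 1 fit of all tumors and -0.071 to 0.10. Between Sox2-WT tissues Dll4 was -0.54 to 0.00077. Between Sox2-KO tissues Notch3 was 0.057 with protein-coding genes alone and -0.33 to 0.038, Heyl 0.23 with protein-coding genes alone, 0.071 thinned, 0.0052 in 1 fit of all tumors and -1.65 to 0.73, Dll4 0.020 with protein-coding genes alone, 0.042 thinned and -0.49 to 0.16, Hey1 -0.16 to 0.91, and Hey2 -1.46 to 0.050. In the interaction Notch1 was 0.13 with protein-coding genes alone, 0.070 thinned and -0.23 to 0.020, Jag1 -0.10 with the block and -0.49 to 0.56, Dll4 0.20 with protein-coding genes alone, 0.14 thinned and -0.25 to 0.41, and Rbpj 0.050 with protein-coding genes alone. The median of all shared genes shifted by 0.17 with thinned counts between the Sox2-KO tissues, and by 0.20 in the interaction with protein-coding genes alone.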

Other observations

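The protein-coding genes whose levels over the 13 tumors were most like those of 5 members were listed as a description, with the root mean square difference of centered log2 CPM as the measure and 14163 genes searched. For Notch1 these were Sars2, Plxna1 and Pcnt, at 0.11, 0.12 and 0.17, against a median of 0.57 over all genes searched. For Notch3 they were the histone demethylase Kdm5b, Lmbrd2 and Daam1, at 0.18, 0.18 and 0.19. For Jag2 they were Phtf1, the Ras pathway inhibitor Spred1 and Lpcat1, at 0.19, 0.23 and 0.25. For Hes1 they were the mitochondrial ribosomal protein gene Mrps21, 1600012H06Rik and Prelid1, at 0.20, 0.20 and 0.21. For Heyl they were the matrix genes Loxl1 and Fbn1 and the forkhead gene Foxs1, at 0.38, 0.41 and 0.42, against a median of 0.96. Fbn1, which encodes fibrillin-1, was at 92.9 to 152 CPM in pancreatic Sox2-KO tumors and 48.4 to 82.9 CPM in pancreatic Sox2-WT tumors. It was at 96.7 and 280 CPM in the 2 oral Sox2-KO tumors and 85.8 to 213 CPM in oral Sox2-WT tumors. As Fbn1 was picked for its likeness to Heyl over these same tumors, its following Heyl is no separate evidence. Among genes that share tissue and library composition such likeness was given no test.

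The further cell type lists stood beside these values. Leukocyte markers summed to medians of 127 CPM (Sox2-WT) and 75.8 CPM (Sox2-KO) in oral tumors and 142 CPM (Sox2-WT) and 87.9 CPM (Sox2-KO) in pancreatic tumors. Basal keratinocyte markers summed to medians of 5704, 4015, 13557 and 13765 CPM in the same order. The leukocyte sums overlapped between the genotypes in the pancreas, at 82.4 to 189 CPM in Sox2-KO and 118 to 269 CPM in Sox2-WT tumors. There 4 of the 7 leukocyte genes tested had log2 fold changes above 0 and 3 below. In oral tumors the leukocyte sums did not overlap, at 73.2 and 78.5 CPM in Sox2-KO and 90.0 to 163 CPM in Sox2-WT tumors. Of the 7 genes tested, 2 had log2 fold changes above 0 and 5 below. Without overlap 3 were lower, against 25.5% of all genes, and edgeR called 1 lower, against 646 of 22342 genes. Ptprc overlapped, at 27.5 and 29.8 CPM in Sox2-KO and 16.9 to 31.4 CPM in Sox2-WT tumors. Differentiated keratinocyte markers summed to 3837 to 7397 CPM in pancreatic Sox2-WT and 548 to 2218 CPM in pancreatic Sox2-KO tumors, which did not overlap, with the keratins Krt4 and Krt13 lower in every Sox2-KO tumor of the pancreas. In oral tumors they summed to 1141 to 6236 CPM (Sox2-WT) and 2786 to 7648 CPM (Sox2-KO), which overlapped. Krt4 (1009 and 1420 CPM against 184 to 496 CPM) and Krt13 (939 and 991 CPM against 203 to 671 CPM) were higher in both Sox2-KO tumors than in any Sox2-WT tumor. Ivl went the other way, at 0.794 and 1.17 CPM against 2.86 to 59.0 CPM. Of the 9 markers, 6 had log2 fold changes above 0 and 3 below in oral tumors. Of the 9, 1 was lower in Sox2-KO tumors without overlap, where 25.5% of all genes tested were lower in that way. By edgeR 1 of the 9 was called higher, against 1968 of all 22342 genes tested. Pancreatic acinar and duct markers summed to at most 7.55 CPM in oral tumors and at least 35.2 CPM in pancreatic tumors, with the acinar factor Ptf1a at 0 in 12 of 13 tumors. Salivary gland markers summed to at most 51.9 CPM in any tumor.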
